A study of Mus musculus with 54 samples.

Results

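The genes followed here are the translation initiation and elongation factors of mouse bone marrow myeloid progenitors, measured in single cells by MARS-seq. MARS-seq is a plate-based method that tags the 3' end of each mRNA with a code for its well and a random code for the molecule (UMI), so that a UMI count stands for captured molecules. The members are the rows of the deposited count table with a gene symbol beginning with Eif1 to Eif6, Eef1 or Eef2, leaving out the X- and Y-linked pair Eif2s3x and Eif2s3y, that held at least 100 UMIs in all wells. Of 27297 rows, 63 carried such a symbol and 60 reached the minimum, as did 9640 rows of the whole table. Just inside the minimum were Eif2c4 with 106 UMIs and Eif4a2 with 126, and outside it were Eif5a2 with 26 and Eef1a2 and Eif4e1b with 0. The symbol rule also takes in regulators of the factors, and 3 Argonautes that carry older Eif2c names. In 6 rows (Eif4h, Eif2c3, Eif2c4, Eif2d, Eif3a and Eif4ebp3) the symbol is joined to another name, so those values are uncertain for the single gene.

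In translation initiation, eIF2 carries the initiator tRNA to the small ribosomal subunit, eIF3 and the eIF1 group prepare that subunit for scanning, and the cap-binding eIF4 factors bring the mRNA. The exchange factor eIF2B recharges eIF2, and 4 kinases that phosphorylate eIF2 alpha turn eIF2 into an inhibitor of eIF2B, the step shared by the integrated stress response. The eIF4E-binding proteins Eif4ebp1 to Eif4ebp3 hold the cap-binding protein eIF4E away from its scaffold eIF4G until the kinase mTORC1 phosphorylates them. In elongation, eEF1A delivers aminoacyl-tRNA, the eEF1B subunits recharge it and eEF2 moves the ribosome along. Red cell precursors make globin in large amounts and are the cells in which the heme-regulated kinase Eif2ak1 is best known.

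All cells were bone marrow cells without lineage markers and Sca1 and with cKit, from C57BL/6 mice. The well table of the authors sorts the 54 amplification pools (each 190 single-cell wells, 2 pools to a plate) into 8 groups, used here. The genotypes and treatments that follow are those of the GEO labels that name each group, and part of the pools carry another label. The table has 12 Cebpa KO and 6 Cebpa control pools, and labels of those names give Cebpa(flox/flox)Mx1-Cre mice for KO, Cebpa(flox/flox) or Cebpa(flox/flox)Mx1-Cre mice for control, and poly(I:C) for both, which switches on the interferon-driven Mx1-Cre. It has 4 Cebpe KO and 2 Cebpe control pools, and labels of those names give Cebpe-/- and Cebpe+/+ mice. Inside the common myeloid progenitor (CMP) gate, CD34+ FcgR(low), 3 fractions were sorted: CD41+ (2 pools, wild type), Flt3+ Csf1r+ (6 pools, wild type) and GFP+ MHCII+ from Irf8-GFP mice (6 pools). Unsorted wild-type progenitors (16 pools) are their reference. The labels give 6 to 8 weeks as the age, and 14 weeks for 12 pools, all of which carry a label that names another group than the table.

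The GEO label names the same group as the authors' table for 36 pools and another group for 18. The 18 include 4 of 12 Cebpa KO, 2 of 6 Cebpa control, 4 of 6 Flt3+ Csf1r+ and 2 of 6 Irf8-GFP+ MHCII+ pools, and all 6 Cebpe pools. For these pools the age, genotype and treatment on the label cannot be given to the group of the table. Where both sources name the same group, the Cebpa pools carry poly(I:C) with no dose, and the strain label of control replicates 3 and 4 (plate 26) names Mx1-Cre while that of replicates 5 and 6 (plate 27) does not. The targeted genes followed the table: Cebpa had 0 to 2 UMIs in each Cebpa KO pool and 35 to 64 in each Cebpa control pool. Cebpe had 0 UMIs in each of the 4 Cebpe KO pools, against 40 and 21 in the Cebpe control pools, and all 6 of those libraries are labelled otherwise.

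Cells with at least 500 UMIs were kept, 8399 of 10260 (81.9%), with a median of 2646 UMIs, and a pool held 121254 to 852363 UMIs of kept cells. No well identifier occurred in more than 1 pool. Levels are UMIs per 1000000 UMIs of a pool (CPM). They have no length scaling, because 3' tags are counted. Each group has 1 mouse identifier, so every p-value measures the spread between pools of 1 identifier, which may be technical. A lower level can come from fewer cells of a type or from less RNA per cell, and a pool sum cannot tell these apart.

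The 60 members held 2.70% of all UMIs. Elongation factors took 45.7% of the members' UMIs with 7 genes, and the 13 eIF3 subunits took 27.2%. The translocase Eef2 had 89795 UMIs in all, the tRNA carrier Eef1a1 78046 and the hypusine-bearing factor Eif5a 60388. They were followed by the eEF1B subunits Eef1b2 (46637) and Eef1g (45438) and the eIF3 subunits Eif3f (31480), Eif3k (25418), Eif3h (23318), Eif3b (21572) and Eif3c (20183). The 11 eIF4 cap and helicase factors held 12.5% of the members' UMIs, the 8 start-site factors 7.29%, the 4 eIF4E-binding proteins 2.48% and the 5 eIF2B subunits 2.33%. The 4 eIF2 alpha kinases together held 0.531%, so their values rest on few molecules.

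As a share of all UMIs, the members ranged from 2.22% to 2.32% in Cebpe KO pools, the lowest of the 8 groups, to 2.81% to 3.08% in Cebpa KO pools, the highest. They made up 2.93% ± 0.0770 in Cebpa KO pools and 2.65% ± 0.108 in Cebpa control pools (SD, n = 12 and 6), and the 2 groups did not overlap. This gap is not a trait of the whole family. The eIF3 share was level, at 0.761% ± 0.0256 in KO and 0.762% ± 0.0191 in control, while the elongation factor share was 1.41% ± 0.0599 and 1.17% ± 0.0920. The sum includes Eef1a1, which had 3351 to 5031 CPM on the KO plates and 139 to 2401 CPM on the control plates. Eef1a1 alone differed between these groups by at least as much as the sum did. The gap, and the highest place of the Cebpa KO pools, therefore rest on Eef1a1 and are not read as a result about the other members. Cebpe KO pools had 2.27% ± 0.0486 and Cebpe control pools 2.83% ± 0.0798 (SD, n = 4 and 2), also without overlap. The CD41+ gate had 2.54% ± 0.0617 (n = 2), the Flt3+ Csf1r+ gate 2.59% ± 0.135 (n = 6), the Irf8-GFP+ MHCII+ gate 2.50% ± 0.104 (n = 6) and the unsorted progenitors 2.79% ± 0.0962 (SD, n = 16). All pools of the CD41+ and Irf8-GFP+ gates lay below every unsorted pool, whereas the Flt3+ Csf1r+ pools overlapped the unsorted range of 2.65% to 2.93%. The 80 ribosomal protein rows stood in another order: 9.28% ± 0.985 of UMIs in Cebpe KO, 10.2% ± 0.787 in the Irf8-GFP+ gate and 13.8% ± 0.102 in the CD41+ gate, against 9.38% ± 1.22 in unsorted pools. Thus the 2 CD41+ pools, from 1 plate, had a lower summed share of the members and a higher share of ribosomal proteins than every unsorted pool. The lower sum is not independent of Eef1a1. The CD41+ plate held 2.54% with Eef1a1 at 646 CPM, and unsorted plate 9 held 2.80% with Eef1a1 at 3275 CPM.

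**Figure D1:**
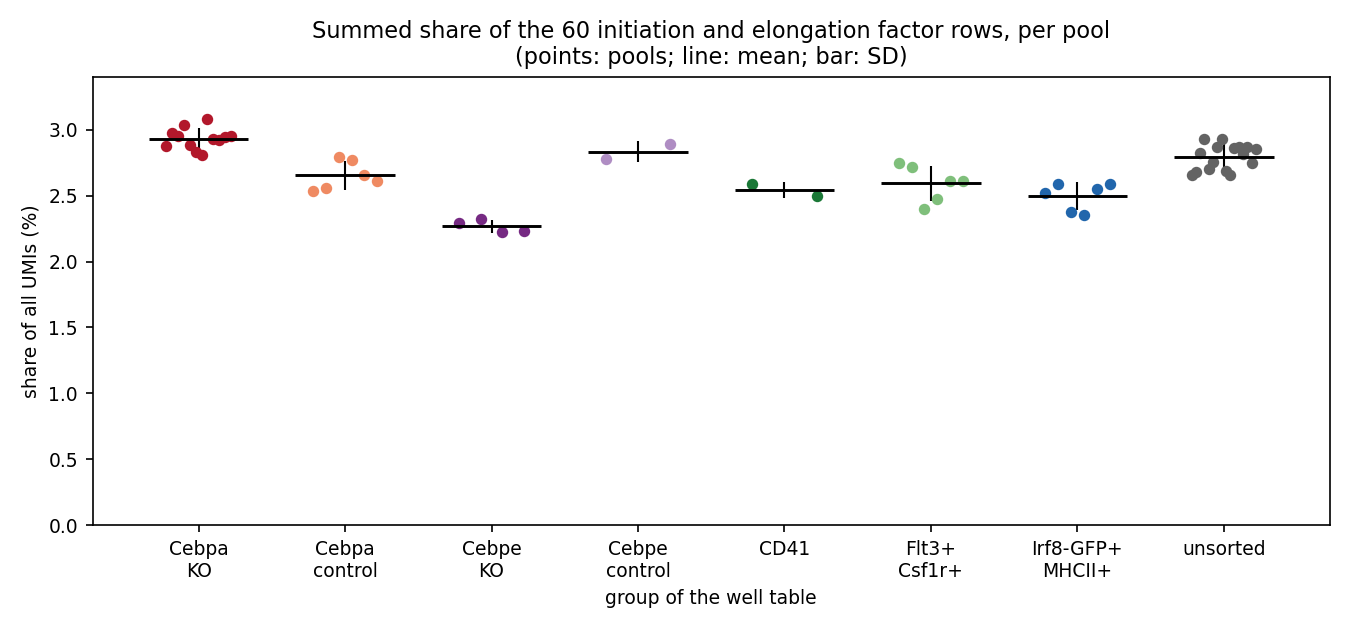
Share of all UMIs (percent, vertical axis) held by the 60 initiation and elongation factor rows in each of the 54 pools, by group; points are pools, lines the mean and bars the SD. The Cebpa KO pools sit highest and the Cebpe KO pools lowest, at 2.93% ± 0.0770 and 2.27% ± 0.0486. The sum includes Eef1a1, on which the highest place of the Cebpa KO pools rests.

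In Cebpa KO progenitors the elongation factor Eef1a1 and the eIF2 beta subunit Eif2s2 were higher than in control, while the abundant Eef2 and Eif5a were lower. With edgeR's quasi-likelihood test on pool sums, sequencing batch as a covariate and Benjamini-Hochberg adjustment over all 5977 genes tested, 10 of 54 members tested had an adjusted p under 0.05, 6 higher and 4 lower. Over all genes tested, 18.6% had one (9.67% higher, 8.95% lower), so the members' share is at the background, and the median log2 fold change was -0.023 over members and 0.023 over all genes. Of the elongation factors, 2 of 7 rose and 2 fell, of the eIF3 subunits 1 of 12 rose and 1 fell, and none of the 5 eIF2B subunits or 3 eIF2 alpha kinases tested passed. Eef1a1 ranged over 3291 to 5555 CPM (median 4304) in Cebpa KO pools, against 36.3 to 2447 CPM (median 535) in Cebpa control pools (log2 fold change 2.07, SE 0.44, adjusted p = 0.00154). Eif2s2, part of the complex that carries the initiator tRNA, ranged over 119 to 241 CPM (median 159) in Cebpa KO, against 16.5 to 106 CPM (median 46.6) in control (log2 fold change 1.34, SE 0.23, adjusted p = 0.000175). For both genes every KO pool lay above every control pool.

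The Cebpa control plates differed among themselves. Eef1a1 stood at 3351 to 5031 CPM on the 6 KO plates, against 539.9 CPM on control plate 14, 2401 on plate 26 and 139 on plate 27. Without control plate 26 the log2 fold change of Eef1a1 was 3.85 and 28 members were called (34.2% of all genes), without plate 27 it was 1.57 and 5 were called (11.8%), and without control replicate 3 alone 16 were called (24.4%). Plate 27 also had the highest Eef2 (4739.9 CPM), Eif5a (3937 CPM) and Eif4ebp1 (808 CPM) of the 9 Cebpa plates. Eef2 averaged 3052 ± 134 CPM in KO and 3901 ± 682 CPM in control pools (log2 fold change -0.41, SE 0.11, adjusted p = 0.0104), and Eif5a 1927 ± 267 CPM in KO and 2806 ± 894 CPM in control (log2 fold change -0.60, SE 0.15, adjusted p = 0.00549), with overlapping ranges. Without plate 27 neither was called (adjusted p = 0.0537 and 0.124).

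The eIF3 subunit Eif3m had the largest fold difference of this comparison, log2 fold change 2.18, SE 0.55, adjusted p = 0.00624, over 4.50 to 228 CPM (median 98.4) in KO and 3.38 to 30.4 CPM (median 10.1) in control pools, which overlapped. The row of Eif4ebp3, joined to another gene, was at 16.1 to 115 CPM (median 56.6) in KO and 6.60 to 50.8 CPM (median 12.3) in control pools (log2 fold change 1.27, SE 0.35, adjusted p = 0.0118). The helicase Eif4a1 rose (log2 fold change 0.46, adjusted p = 0.0156), but not without control replicate 1 or control replicate 2 (adjusted p up to 0.0954). The eEF1B subunit Eef1g rose (log2 fold change 0.35, adjusted p = 0.0196), but was not called without control replicate 1, control replicate 2, control replicate 5 or control plate 27 (adjusted p up to 0.0692). The scanning factor Eif1ax (log2 fold change -0.42, adjusted p = 0.0296) and the eIF3 subunit Eif3g (-0.42, adjusted p = 0.0191) fell, and each lost its call without control replicate 5, replicate 6 or plate 27 (adjusted p up to 0.467 and 0.328).

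Summed per plate, 2 of the 10 calls held, Eef1a1 (adjusted p = 0.0452) and Eif2s2 (adjusted p = 0.0147), with 5.41% of all genes called. In the 12 pools where label and table name the same group, which are also the pools of 1 sequencing batch (named SB29 in the table), 2 members were called: Eif2s2 (log2 fold change 1.06, adjusted p = 0.0247) and Eif5a (-0.70, adjusted p = 0.0371), with 8.72% of all genes. There Eef1a1 had a log2 fold change of 1.61 (adjusted p = 0.0777), and in the other batch, SB23, it had 3.24 (adjusted p = 7.46e-17). A test of the difference of the effect between the batches called 0 of 55 members and 1 of 6993 genes (0.0143%), with 14 members at an unadjusted p under 0.05. Cell composition moved with the knockout: the 12 neutrophil markers summed to 88.0 to 1239 CPM per Cebpa KO pool, against 10444 to 19469.6 CPM per control pool. The 10 erythroid markers measured summed to 13139 to 15939 CPM in KO and 7139 to 12853 CPM in control pools, and no marker of either list was at 0 in either group. Their part in the result was not tested.

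In Cebpe KO progenitors the members moved mostly down. Of 56 tested, 15 fell and 1 rose, against 9.85% lower and 13.5% higher among the 7369 genes tested (23.4% in either direction), and the median log2 fold change was -0.21 over members and -0.012 over all genes. Elongation factors (4 of 7), eIF3 subunits (5 of 12), eIF2 subunits Eif2s1 and Eif2s2 and the eIF4E binders Eif4ebp1 and Eif4enif1 fell, and the scaffold Eif4g3 rose. None of the 5 eIF2B subunits or 4 eIF2 alpha kinases passed the test. The 2 control pools came from 1 plate. The cap-binding protein Eif4e had 27.3, 13.9, 17.0 and 9.54 CPM in Cebpe KO pools, against 48.7 and 65.0 CPM in Cebpe control pools (log2 fold change -1.66, SE 0.38, adjusted p = 0.00169). Eif3m had 111, 99.4, 118 and 103 CPM in KO pools, against 274 and 239 CPM in control pools (log2 fold change -1.12, SE 0.17, adjusted p = 8.32e-06). Eef1e1, a member of the multi-synthetase complex despite its name, had 107, 104, 105 and 76.3 CPM in KO, against 188 and 220.5 CPM in control (log2 fold change -0.95, SE 0.19, adjusted p = 0.000385). In each of these 3 genes the highest KO pool stayed well under the lower control pool.

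Eif4ebp1, the mTORC1-controlled inhibitor of the cap-binding protein, had 259, 243, 199.9 and 199 CPM in Cebpe KO pools, against 409.9 and 420.5 CPM in Cebpe control pools (log2 fold change -0.77, SE 0.15, adjusted p = 0.000408). Eif4g3, the only member that rose, had 202, 252, 228 and 191 CPM in KO and 168 and 135 CPM in control pools (log2 fold change 0.64, SE 0.18, adjusted p = 0.00789). The other 11 called members fell by smaller amounts, with log2 fold changes from -0.61 (Eif2s1) to -0.34 (Eef1a1). Eif3m, Eef1e1 and Eif4ebp1 kept their calls whichever of the 6 pools was left out. As the control is 1 plate, leaving out a pool cannot show a difference between plates. Between plates of 1 group Eif3m varied widely, with 28.8 to 161 CPM on unsorted plates and 9.55 to 219 CPM on Cebpa KO plates. Eif4e, Eif4g3 and Eef1b2 were not called without control replicate 2 (adjusted p = 0.0742, 0.163 and 0.319), and the other 10 were lost without at least 2 of the pools. Without KO replicate 4, control replicate 1 or control replicate 2 in turn, 9, 6 and 3 members were called (20.6%, 15% and 11.6% of all genes). DESeq2 called 9 members (11.5% of all genes). Summed per plate, 5 held (Eef1e1, Eif3m, Eif4e, Eif4ebp1 and Eif4g3), with 15% of all genes called.

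The GEO labels give the Cebpe groups to other pools altogether. Grouped by label, 12 of the 16 called members changed direction (Eif4ebp1 to 1.23 and Eef1e1 to 1.20 on the log2 scale), so their direction rests on the table, which the Cebpe counts of the pools follow. The 12 neutrophil markers summed to 52459.8 to 59007 CPM in Cebpe KO pools (Cebpe itself at 0), against 14289 to 15896 CPM in control pools. The erythroid markers summed to 2664 to 3979 CPM in KO and 9547 to 11404 CPM in control pools, with none at 0. The part of this shift in the members' result was not tested. Leaving the neutrophil marker rows out of the table left 13 members called (23.1% of all genes). The neutrophil cells and their counts of the members stayed in that fit, so it does not address cell composition.

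Inside the CMP fraction the 3 sorted gates each differed from unsorted progenitors in many members, mostly downward. The 3 comparisons share the unsorted pools as control, so their results are not independent of each other. In the CD41+ gate 9 of 58 members tested rose and 19 fell (18% and 22.5% of the 8720 genes tested, 40.5% in either direction). In the Flt3+ Csf1r+ gate 9 rose and 27 fell (25.8% and 27.5% of all genes, 53.3% in either direction). In the Irf8-GFP+ MHCII+ gate 5 rose and 36 fell (28.3% and 27.8% of all genes, 56.1% in either direction). The median log2 fold changes over the members tested were -0.31, -0.33 and -0.44 in the CD41+, Flt3+ Csf1r+ and Irf8-GFP+ gates, beside -0.15, -0.038 and 0.0026 over all genes. The members' share of lower calls was above that of all genes in each gate, most so in the Irf8-GFP+ gate. Scaled by library size alone, the CD41+ gate had 5 higher and 20 lower members (15.7% and 25% of all genes).

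**Figure D2:**
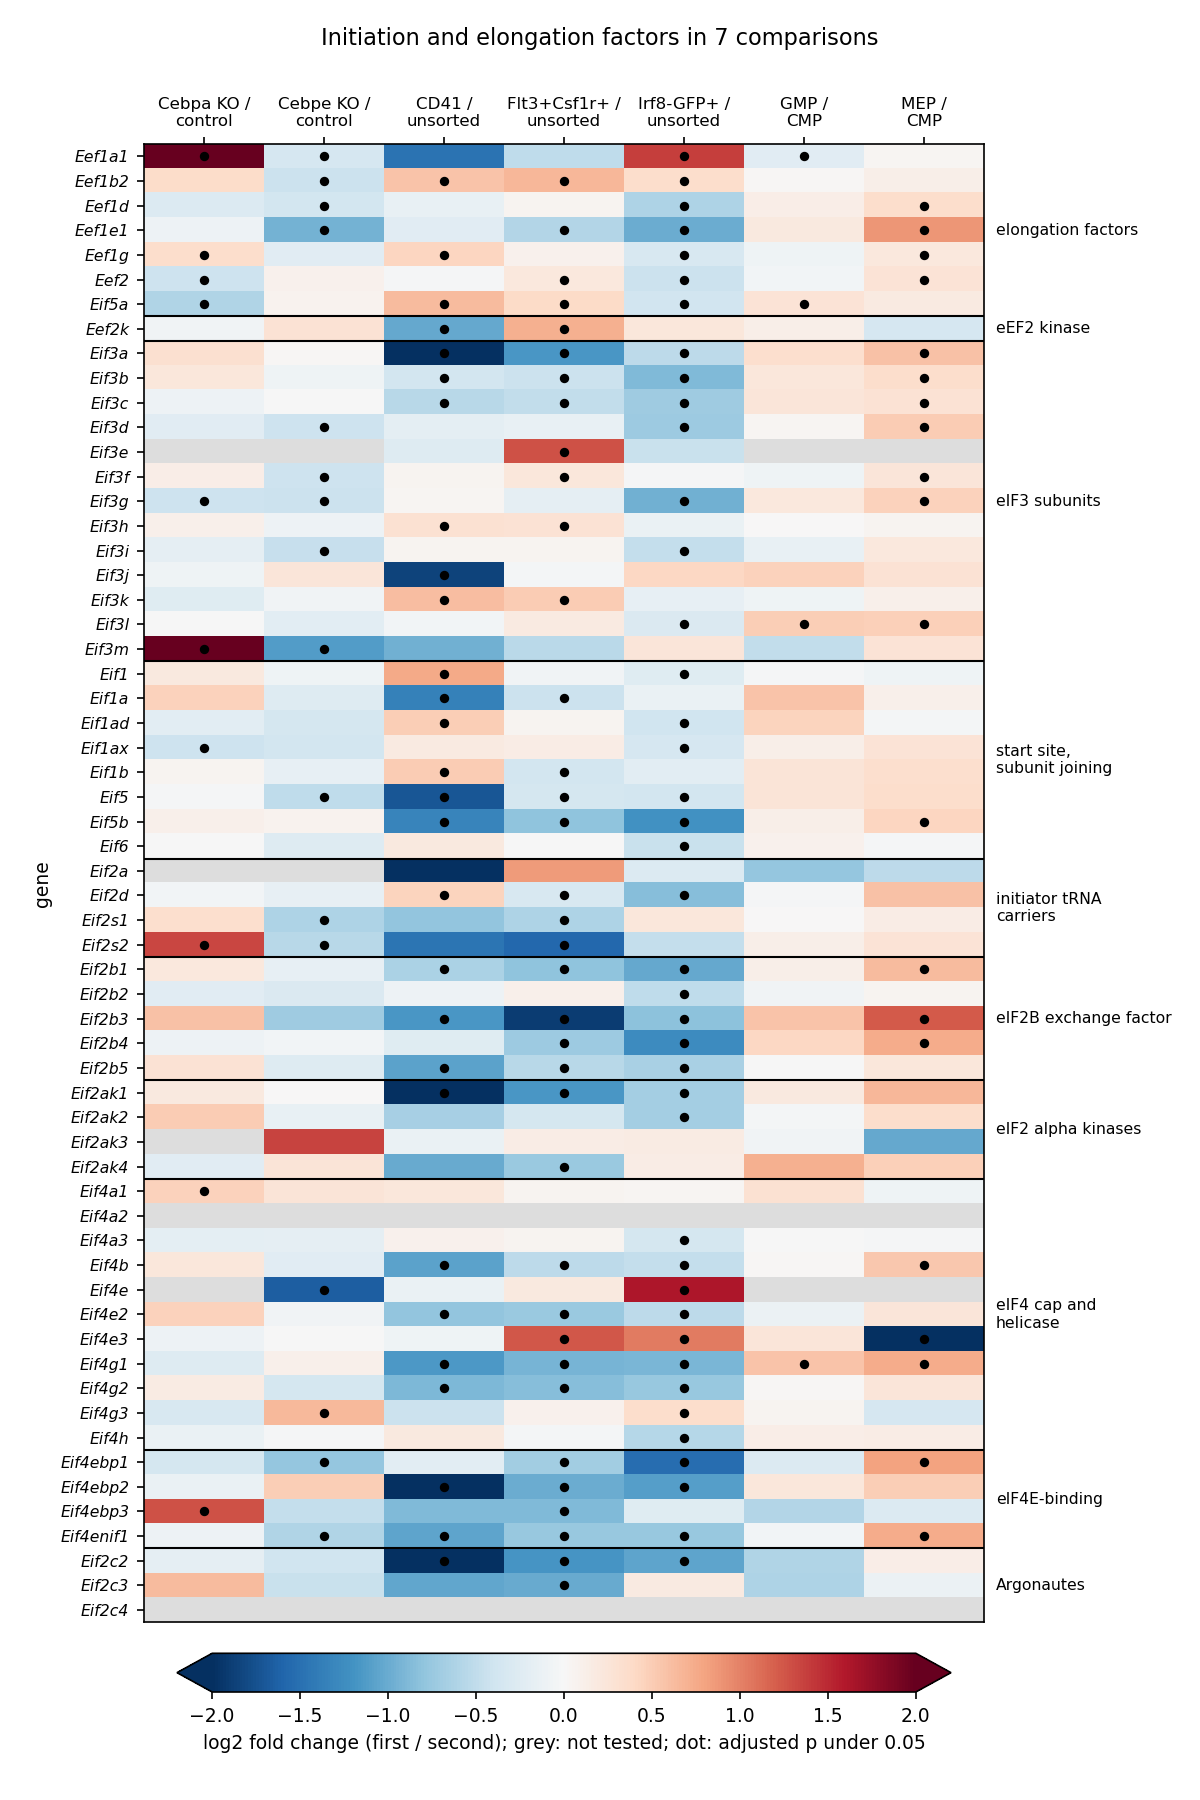
Heat map of the log2 fold change (colour, ending at -2.0 and 2.0) of the 60 members (rows, grouped by role) in the 7 comparisons (columns, first group over second); dots mark an adjusted p under 0.05 and grey cells were not tested. The 3 sorted CMP gates are mostly blue, with medians of -0.31, -0.33 and -0.44, and the MEP column is mostly red, with a median of 0.26.

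Summed per plate, 20 of the members' calls held in the CD41+ gate, 30 in the Flt3+ Csf1r+ gate and 38 in the Irf8-GFP+ gate. In those plate fits 28.5%, 41.3% and 45.8% of all genes were called, whether or not they were called over pools. The CD41+ gate is 1 plate: without its replicate 1, 14 members were called (23.6% of all genes), and without its replicate 2, 15 were (20.9%). Within the sequencing batch it shares with unsorted plates 2 and 3, 27 were called (40.9%). Neither the Flt3+ Csf1r+ nor the Irf8-GFP+ gate shares a sequencing batch with unsorted pools, and the Irf8-GFP+ gate also differs from them in genotype, so gate, batch and genotype cannot be told apart. With the pools whose label and table agree, 28, 30 and 39 members were called in the CD41+, Flt3+ Csf1r+ and Irf8-GFP+ gates (42.7%, 39.9% and 49.6% of all genes). The erythroid markers summed to 1038 to 1566 CPM in the CD41+ gate, 85.3 to 143 CPM in the Flt3+ Csf1r+ gate and 142 to 373 CPM in the Irf8-GFP+ gate (Rhd and Aqp1 at 0, no other marker at 0 in these gates), against 7669.5 to 11665 CPM in unsorted pools. The megakaryocyte markers summed to 12146 to 13084 CPM in the CD41+ gate, against 51.6 to 269 CPM in unsorted pools, and the dendritic markers to 17841 to 27200.5 CPM in the Irf8-GFP+ gate, against 763 to 1409 CPM. The monocyte markers summed to 1959 to 2644 CPM in the Flt3+ Csf1r+ gate, against 739 to 2119 CPM in unsorted pools, with overlap. The part of cell composition in the members' result was not tested.

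Among the elongation factors, the exchange-factor subunit Eef1b2 was higher in all 3 CMP gates. It had 1963 and 2231 CPM in the CD41+ gate, 1999 to 2434 CPM (median 2292) in the Flt3+ Csf1r+ gate and 1676 to 2079.7 CPM (median 1939) in the Irf8-GFP+ gate, against 1304 to 1781 CPM (median 1496) in unsorted pools. The log2 fold changes were 0.58, 0.67 and 0.35 (adjusted p = 0.00087, 5.89e-08 and 0.00104), and the CD41+ call was lost without gate replicate 2 (adjusted p = 0.0515). No pool of the CD41+ or Flt3+ Csf1r+ gates overlapped the unsorted pools. All 7 elongation factors changed in the Irf8-GFP+ gate (56.1% of all genes), with Eef1a1 and Eef1b2 up and the other 5 down. There Eef1a1 had 2953 to 6413 CPM (median 5639), against 416 to 3605 CPM (median 1887) in unsorted pools (log2 fold change 1.38, SE 0.33, adjusted p = 0.000487), with overlap. Eef2 had 2349 to 2928 CPM (median 2567) in the Irf8-GFP+ gate, against 2785 to 4014 CPM (median 3432) in unsorted pools (log2 fold change -0.43, SE 0.086, adjusted p = 6.37e-05), with overlap.

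Eif5a, which needs the modified residue hypusine to help ribosomes past difficult peptide bonds, was higher in the CD41+ and Flt3+ Csf1r+ gates and lower in the Irf8-GFP+ gate. It had 3307 and 3196 CPM in the CD41+ gate, against 1923 to 2775 CPM (median 2160.2) in unsorted pools (log2 fold change 0.63, adjusted p = 0.00622), a call lost without either CD41+ pool (adjusted p up to 0.0692). In the Flt3+ Csf1r+ gate it had 1582 to 3496 CPM (median 3024) (log2 fold change 0.39, adjusted p = 0.00709, and 0.0915 over plates). In the Irf8-GFP+ gate it had 1529.5 to 2096 CPM (median 1598) (log2 fold change -0.38, adjusted p = 0.00986), not called without gate replicate 2 (adjusted p = 0.0504) or over plates (0.0612). Eef1e1 had 75.3 to 113 CPM (median 97.3) in the Irf8-GFP+ gate, against 156 to 232 CPM (median 188) in unsorted pools (log2 fold change -1.0, SE 0.11, adjusted p = 2.44e-09), and was lower in the Flt3+ Csf1r+ gate too (log2 fold change -0.59, adjusted p = 4.60e-05). In both gates every pool lay below every unsorted pool. Eef2k, the kinase that inhibits eEF2, moved in opposite directions, with a log2 fold change of -1.02 in the CD41+ gate (adjusted p = 0.00618, lost without either gate pool, adjusted p up to 0.139) and 0.71 in the Flt3+ Csf1r+ gate (adjusted p = 3.09e-05). It had 24.0 and 19.7 CPM and 49.0 to 86.9 CPM (median 75.9) in those gates, against 34.3 to 62.3 CPM (median 45.1) in unsorted pools.

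Eef1a1 also varied between plates of unsorted cells, all from 1 mouse identifier. On plates 2 to 9 it had 1243, 2862, 582, 3191, 427, 2629.8, 984 and 3275 CPM, a 7.67-fold range that ranked 17 of 2349 rows with a mean of at least 100 CPM. Plates 3, 5, 7 and 9 were high and plates 2, 4, 6 and 8 low, while the pools of a plate stayed within a median ratio of 1.12. Eif2s2 followed the same plates, with 56.6, 235, 39.7, 203, 48.3, 153, 54.5 and 211 CPM, and so did Eif2s1. Of the rows with that mean, 136 (5.79%) had the same 4 plates highest and 161 (6.85%) had them lowest. The members as a whole were not more variable: 6 of 43 (14.0%) differed 2-fold or more between plates, against 287 of 2349 rows (12.2%), and their median ratio of highest to lowest plate was 1.37, against 1.49. The plate pattern spanned sequencing batches, and the same 4 plates were highest for Eef1a1, Eif2s2 and Eif2s1 within each surface gate of unsorted cells. Among rows below that mean, Eif3m and the joined row of Eif4ebp3, both called in Cebpa KO, also had these 4 plates highest. On plates 2 to 9 Eif3m had 41.4, 129, 38.2, 149, 28.8, 121, 61.6 and 161 CPM. Eif4ebp3 had 77.7, 88.9, 57.2, 108, 57.6, 92.2, 53.7 and 89.2 CPM. This spread between plates of 1 group stands beside the differences of Eef1a1, Eif2s2, Eif3m and Eif4ebp3 between Cebpa KO and control. It also stands beside those of Eef1a1, Eif2s1, Eif2s2 and Eif3m in Cebpe KO.

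**Figure D3:**
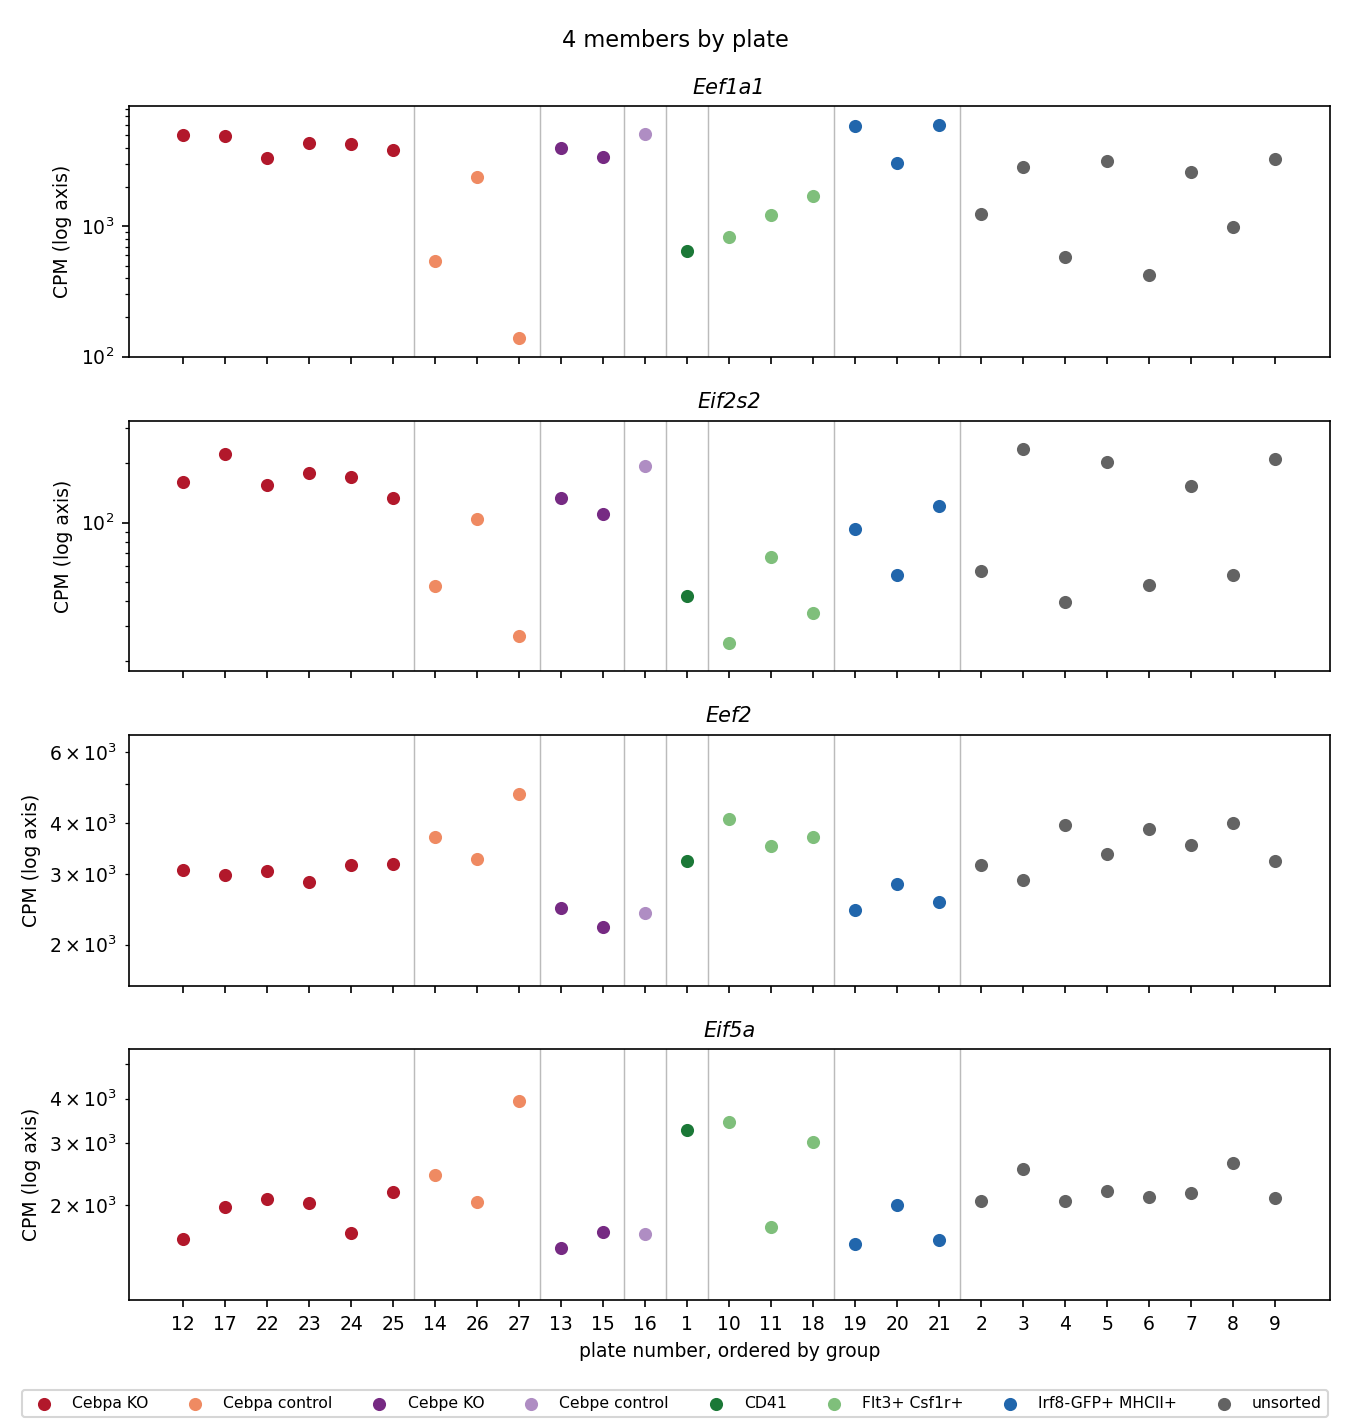
Level of Eef1a1, Eif2s2, Eef2 and Eif5a (CPM, log axis) on each of the 27 plates, by group; each point is 1 plate (sum of its 2 pools). Eef1a1 lies between 427 and 3275 CPM on the unsorted plates, and Cebpa control plate 27 is lowest in Eef1a1 (139 CPM) and highest in Eef2 and Eif5a.

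Among the eIF3 subunits, which form the scaffold on the small ribosomal subunit, 7 of 13 fell in the Irf8-GFP+ gate and none rose (27.8% and 28.3% of all genes). Eif3b had 448 to 544 CPM (median 522) in the Irf8-GFP+ gate, against 879.9 to 1024 CPM (median 935) in unsorted pools (log2 fold change -0.88, SE 0.072, adjusted p = 4.75e-13). Eif3g had 328 to 458 CPM (median 359.7) there, against 643 to 841 CPM (median 740.4) in unsorted pools (log2 fold change -0.97, SE 0.089, adjusted p = 1.10e-11). For both subunits, and for Eif3c, Eif3d and Eif3i, no gate pool reached the lowest unsorted pool. In the Flt3+ Csf1r+ gate 4 subunits rose and 3 fell, and in the CD41+ gate 2 rose and 4 fell. Eif3k was among those that rose, with 1184 and 1199 CPM in the CD41+ gate and 942 to 1177 CPM (median 1161) in the Flt3+ Csf1r+ gate, against 658 to 1042 CPM (median 846) in unsorted pools (log2 fold changes 0.61, adjusted p = 0.00224, and 0.51, adjusted p = 7.71e-05). The joined row of Eif3a fell in all 3 gates, most in the CD41+ gate, with 101 and 78.8 CPM against 315 to 773 CPM (median 505) in unsorted pools (log2 fold change -2.36, SE 0.33, adjusted p = 4.11e-07). Its log2 fold changes in the other gates were -1.17 and -0.52 (adjusted p = 4.70e-07 and 0.00532, Flt3+ Csf1r+ and Irf8-GFP+). In either direction, 46.2% of the subunits were called in the CD41+ gate and 53.8% in the Flt3+ Csf1r+ gate. Of all genes, 40.5% and 53.3% were called there. These shares are near the background, so the mixed directions in these 2 gates are not read as a trait of the complex.

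In some of the calls the plates of a gate went apart. Eif3e, with 345 UMIs in all, had 12.3, 85.2 and 11.9 CPM on Flt3+ Csf1r+ plates 10, 11 and 18, against 3.39 to 28.5 CPM (median 12.9) in unsorted pools (log2 fold change 1.27, SE 0.39, adjusted p = 0.00644). It was not called without gate replicate 3 of plate 11 (adjusted p = 0.222), and with only the pools whose label agrees, which leaves plate 10, the log2 fold change was -0.092 (adjusted p = 0.908). Eif4e had 48.2, 1.98 and 38.4 CPM on Irf8-GFP+ plates 19, 20 and 21, against 1.33 to 33.1 CPM (median 8.33) in unsorted pools (log2 fold change 1.61, SE 0.46, adjusted p = 0.00306). Plate 20, with 1 pool at 0, lay at the lower end of the unsorted range while the other 2 plates lay above it. Among the lower calls of the Flt3+ Csf1r+ gate, Eif2ak1 had 14.1, 48.7 and 18.3 CPM on plates 10, 11 and 18. On the same plates Eif2c2 had 28.2, 69.9 and 38.5 CPM, and Eif4g2 had 247, 409 and 118 CPM. For each of these genes plate 11 alone lay within the range of the unsorted plates.

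Of the 8 start-site and subunit-joining factors, 6 changed in the CD41+ gate (3 up, 3 down), 4 fell in the Flt3+ Csf1r+ gate and 6 fell in the Irf8-GFP+ gate. Of all genes, 40.5%, 53.3% and 56.1% were called in either direction in these gates, and 22.5%, 27.5% and 27.8% fell. The 50% called in the Flt3+ Csf1r+ gate is near the background and is not read as a trait of these factors. Eif5b, the GTPase that joins the ribosomal subunits, fell in all 3 gates. It had 208 and 118 CPM in the CD41+ gate, 184 to 336 CPM (median 221) in the Flt3+ Csf1r+ gate and 139 to 235 CPM (median 185) in the Irf8-GFP+ gate, against 339.5 to 539 CPM (median 430.0) in unsorted pools. The log2 fold changes were -1.32, -0.81 and -1.21 (adjusted p = 4.59e-06, 6.36e-07 and 1.08e-10), and no gate pool overlapped the unsorted pools. Eif1, which guards start codon choice, was higher in the CD41+ gate, with 485 and 518 CPM against 265 to 365 CPM (median 319) in unsorted pools (log2 fold change 0.76, SE 0.12, adjusted p = 6.21e-06). Eif5, the GTPase activator of eIF2, was lower there, with 77.3 and 56.3 CPM against 157 to 323 CPM (median 231) (log2 fold change -1.71, SE 0.27, adjusted p = 3.97e-06). Eif6, which keeps free large subunits apart from small ones, was nearly level over the unsorted plates (1.10-fold between the highest and lowest) and lower in the Irf8-GFP+ gate, with 234 to 328 CPM (median 271) against 339.5 to 419.9 CPM (median 365) (log2 fold change -0.45, SE 0.086, adjusted p = 3.62e-05). Eif6 was not called in the other 6 comparisons.

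The eIF2B exchange factor, which recharges eIF2 with GTP, was lower in the CMP gates. All 5 subunits fell in the Irf8-GFP+ gate, 4 of 5 in the Flt3+ Csf1r+ gate and 3 of 5 in the CD41+ gate. Of all genes, 27.8%, 27.5% and 22.5% fell in these gates, in the same order, and the subunits are few. Eif2b4 had 38.5 to 69.5 CPM (median 59.1) in the Irf8-GFP+ gate, against 106 to 165 CPM (median 134) in unsorted pools (log2 fold change -1.26, SE 0.13, adjusted p = 2.32e-10). Eif2b1 had 108 to 168 CPM (median 127) in the Flt3+ Csf1r+ gate and 93.7 to 152 CPM (median 120.1) in the Irf8-GFP+ gate, against 205 to 290.2 CPM (median 244) (log2 fold changes -0.81, adjusted p = 6.44e-08, and -1.02, adjusted p = 1.92e-10). For Eif2b4 and Eif2b1 no pool of either gate reached the unsorted range. Eif2b3 had 5.52 to 16.0 CPM (median 11.3) in the Flt3+ Csf1r+ gate, against 19.3 to 67.0 CPM (median 46.0) in unsorted pools (log2 fold change -1.90, SE 0.28, adjusted p = 5.30e-07). In the CD41+ gate Eif2b5 (log2 fold change -1.07, adjusted p = 0.00164) was lost without gate replicate 1 (adjusted p = 0.104), Eif2b1 (-0.63, adjusted p = 0.00391) without gate replicate 2 (adjusted p = 0.12), and Eif2b3 (-1.16, adjusted p = 0.0326) without gate replicate 1 or gate replicate 2 (adjusted p up to 0.202). The eIF2 beta subunit Eif2s2 was lower in the Flt3+ Csf1r+ gate, with 22.1 to 80.7 CPM (median 34.8) against 29.7 to 251 CPM (median 107) (log2 fold change -1.57, SE 0.42, adjusted p = 0.00211), and those ranges overlapped.

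The letters CCGGAAG, or CTTCCGG on the other strand, are a textbook core of binding sites for ETS-family factors, which are abundant in myeloid cells. They were searched as the only motif in RefSeq promoters of build GRCm38.p6, from 250 bases before to 50 after each annotated start, which is another build than the mm9 of the files. Of 44 members with a promoter in that set, 14 held the letters (31.8%), as did 1431 of 7029 genes whose rows had at least 100 UMIs (20.4%) and 2465 of all 27025 promoters (9.12%). They were in 11 of 28 members lower in the Irf8-GFP+ gate (39.3%), 1 of 4 higher (25%) and 2 of 11 not called (18.2%), and such a match is a description only. Windows of 30 bases are shown for 3 lower eIF2B and eIF3 genes, the lower kinase Eif2ak1, the lower cap-binding Eif4e2 and the higher Eef1b2, with the letters in capitals.
Eif2b4, chr5:31193120-31193149, minus strand: cccagtgcacgCCGGAAGttgtagtccgct
Eif2b2, chr12:85219486-85219515, plus strand: cctctctcggcCCGGAAGtgaaacagtgct
Eif3g, chr9:20898616-20898645, minus strand: cggccgcggcaCCGGAAGcctcttctactc
Eif2ak1, chr5:143817797-143817826, plus strand: ctcttgtgttaCTTCCGGcttggggggagg
Eif4e2, chr1:87213905-87213934, plus strand: tcgccagccaaCCGGAAGtagccgggccct
Eef1b2, chr1:63176821-63176850, plus strand: ctgcagttccgCCGGAAGtagccgaggcct
In 5 of these 6 the letters lie 2 to 17 bases after the annotated start, and in Eif3g they begin 44 bases before it. This position holds only for the windows picked. Among the members not shown, the match nearest the start began 34 to 212 bases before it in Eif1ax, Eif1b, Eif4ebp2, Eif3d, Eif3m, Eif3l and Eif3c. In Eif1ad it began 22 bases after the start.

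Of the eIF2 alpha kinases, the heme-regulated Eif2ak1 was lower in all 3 CMP gates. It had 8.00 and 14.1 CPM in the CD41+ gate, 12.9 to 56.5 CPM (median 18.3) in the Flt3+ Csf1r+ gate and 27.0 to 46.2 CPM (median 35.4) in the Irf8-GFP+ gate, against 24.2 to 98.5 CPM (median 57.7) in unsorted pools. The log2 fold changes were -2.30, -1.17 and -0.68 (adjusted p = 0.000959, 0.000311 and 0.0118), and the CD41+ call was lost without gate replicate 1 (adjusted p = 0.0516). These are the gates in which the summed erythroid markers were below every unsorted pool, and the part of the erythroid cells in Eif2ak1 was not tested. Eif2ak2, the kinase activated by double-stranded RNA, had 19.1 to 48.2 CPM (median 41.0) in the Irf8-GFP+ gate, against 38.4 to 80.7 CPM (median 61.5) in unsorted pools (log2 fold change -0.67, SE 0.17, adjusted p = 0.00108), with overlap. In Cebpa KO pools it had 24.1 to 115 CPM (median 50.0), against 24.1 to 48.0 CPM (median 38.1) in control pools (log2 fold change 0.52, adjusted p = 0.0879). Poly(I:C) is itself a double-stranded RNA, named for both groups by the labels whose group is that of the table. Eif2ak4, the sensor of uncharged tRNA, was lower in the Flt3+ Csf1r+ gate (log2 fold change -0.73, adjusted p = 0.00929, but 0.291 with only the pools whose label agrees). Eif2ak3, the kinase of endoplasmic reticulum stress, was called in none of the 6 comparisons that tested it.

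Among the cap-binding factors, the scaffold Eif4g1 was lower in all 3 CMP gates. It had 315 and 239 CPM in the CD41+ gate, 279.8 to 358 CPM (median 335) in the Flt3+ Csf1r+ gate and 312 to 387 CPM (median 349.8) in the Irf8-GFP+ gate, against 379 to 808 CPM (median 684) in unsorted pools. The log2 fold changes were -1.15, -0.92 and -0.91 (adjusted p = 7.41e-06, 1.05e-08 and 6.46e-09). The CD41+ and Flt3+ Csf1r+ pools stayed below every unsorted pool, while the Irf8-GFP+ pools overlapped them. The related scaffold Eif4g2 and the cap-binding repressor Eif4e2 were also lower in each gate, with log2 fold changes from -0.89 to -0.75 and from -0.79 to -0.52, and the CD41+ call of Eif4g2 was lost without either gate pool (adjusted p up to 0.17). Eif4e3, an atypical cap-binding protein, went the other way. It had 63.0 to 138 CPM (median 81.2) in the Flt3+ Csf1r+ gate and 44.4 to 105 CPM (median 86.8) in the Irf8-GFP+ gate, against 24.0 to 54.5 CPM (median 40.0) in unsorted pools (log2 fold changes 1.25, adjusted p = 2.47e-08, and 1.04, adjusted p = 4.27e-07), without overlap in the Flt3+ Csf1r+ gate and with overlap in the Irf8-GFP+ gate.

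The eIF4E-binding proteins, which hold the cap-binding protein away from the scaffold, were lower in the CMP gates: all 4 in the Flt3+ Csf1r+ gate (Eif4ebp3 not with only the pools whose label agrees, adjusted p = 0.325), 3 of 4 in the Irf8-GFP+ gate and 2 of 4 in the CD41+ gate. Of all genes, 27.5%, 27.8% and 22.5% fell in these gates, in the same order, and these shares of the binders rest on 4 genes. Eif4ebp1 had 132 to 172 CPM (median 157) in the Irf8-GFP+ gate, against 349 to 557 CPM (median 429) in unsorted pools (log2 fold change -1.52, SE 0.10, adjusted p = 4.80e-15). Every gate pool lay below every unsorted pool, and it was the called member with the lowest adjusted p in any comparison. In the Flt3+ Csf1r+ gate it had 219.5 to 304 CPM (median 246) (log2 fold change -0.70, SE 0.1, adjusted p = 3.15e-07), again without overlap. Eif4ebp2 had 8.00 and 14.1 CPM in the CD41+ gate, 49.7 to 164 CPM (median 61.5) in the Flt3+ Csf1r+ gate and 58.9 to 111 CPM (median 73.5) in the Irf8-GFP+ gate, against 103 to 279 CPM (median 149) in unsorted pools. Its log2 fold change in the CD41+ gate, -3.76 (SE 0.49, adjusted p = 1.33e-07), was the largest of any member in the 7 comparisons. In the other gates it was -0.99 and -1.10 (adjusted p = 4.97e-05 and 4.73e-06, Flt3+ Csf1r+ and Irf8-GFP+). Eif4enif1, which shuttles the cap-binding protein into the nucleus, fell in all 3 gates, with log2 fold changes from -1.05 to -0.75.

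**Figure D4:**
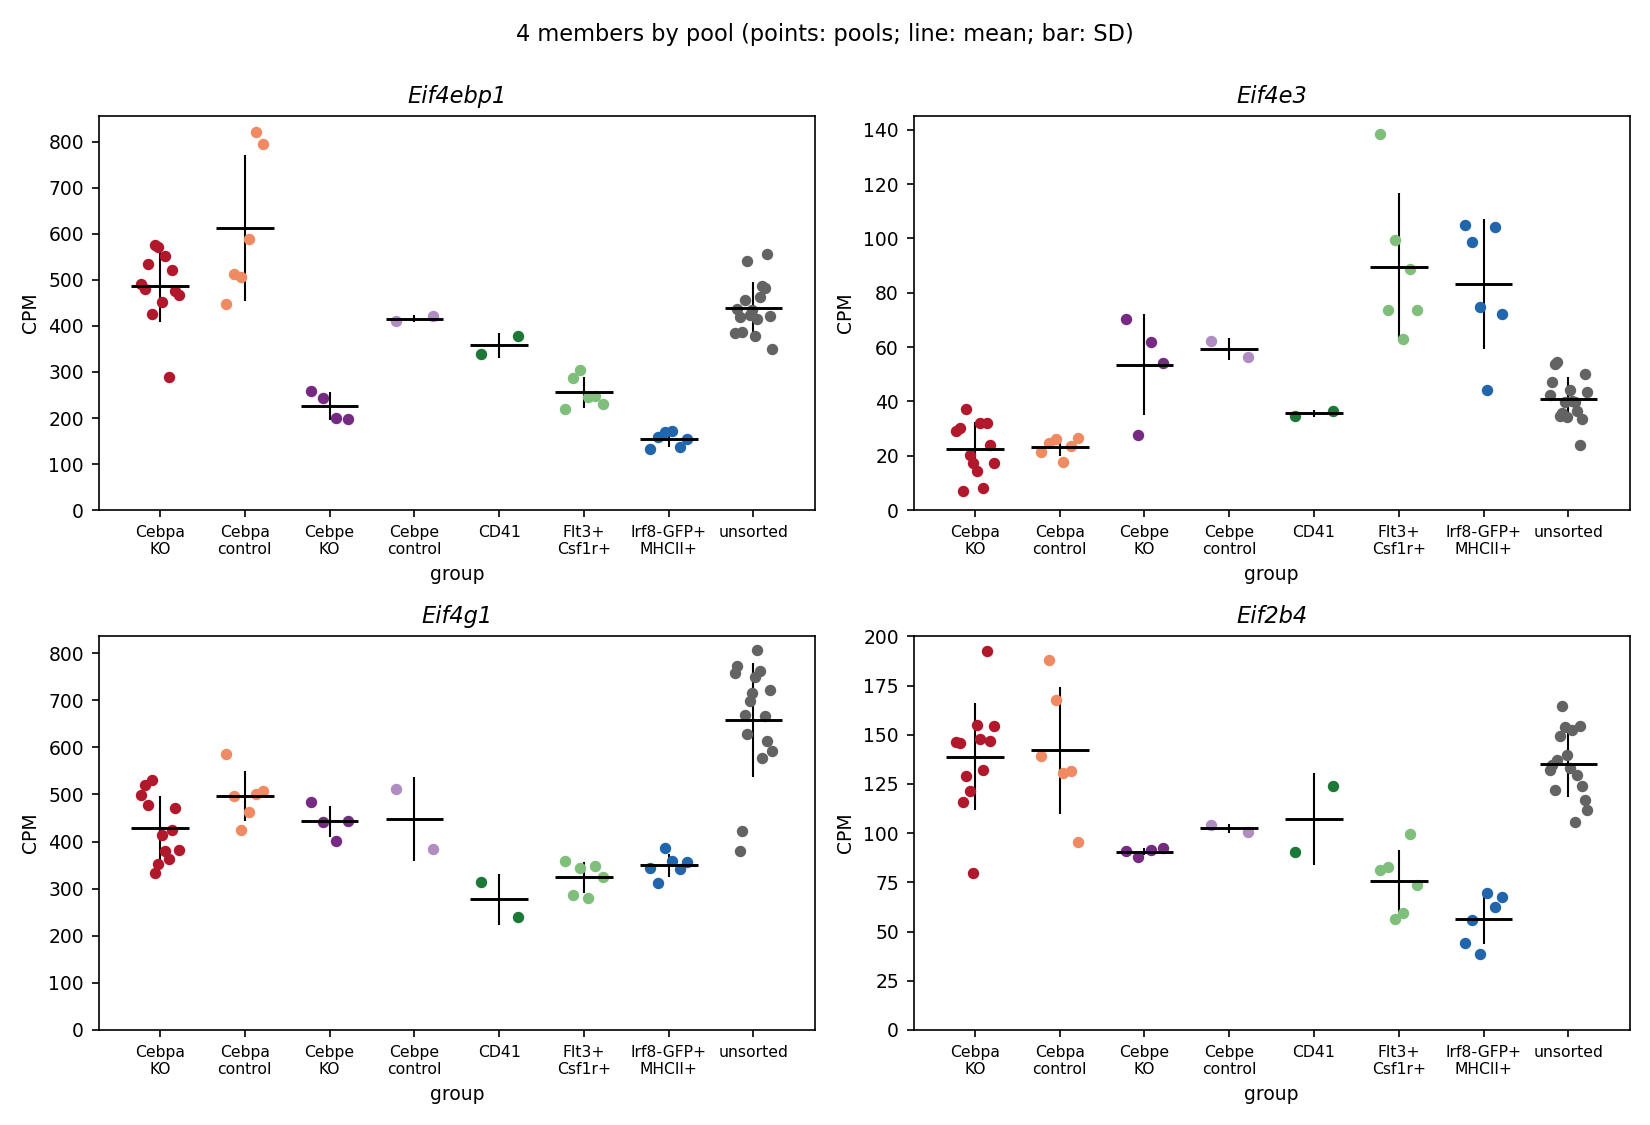
Level of Eif4ebp1, Eif4e3, Eif4g1 and Eif2b4 (CPM) in each pool by group; points are pools, lines the mean and bars the SD. Eif4ebp1 lies at 132 to 172 CPM (median 157) in the Irf8-GFP+ MHCII+ gate, below all unsorted pools, and Eif4e3 is higher in the Flt3+ Csf1r+ and Irf8-GFP+ gates.

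The Argonautes listed under Eif2c names bind microRNAs and are not initiation factors. Eif2c2 was lower in the 3 CMP gates, with 10.7 and 11.3 CPM in the CD41+ gate, 12.9 to 91.5 CPM (median 40.8) in the Flt3+ Csf1r+ gate and 36.9 to 62.4 CPM (median 49.8) in the Irf8-GFP+ gate, against 58.5 to 182 CPM (median 104) in unsorted pools. The log2 fold changes were -3.11, -1.18 and -1.06 (adjusted p = 1.18e-05, 3.85e-05 and 5.02e-05).

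Unsorted cells carry index-sort intensities of CD34 and FcgR, which split them into surface gates at the medians of each plate. Cells high in both are called GMP (granulocyte-monocyte), low in both MEP (megakaryocyte-erythroid), and CD34-high FcgR-low CMP. This left 1173 GMP, 1168 MEP and 184 CMP cells on the same 8 plates, with medians of 2734, 4583 and 1638 UMIs per cell. The CMP gate had 12 to 38 cells a plate, so its levels are the least certain. The members made up 2.44% ± 0.104 of UMIs in GMP, 3.06% ± 0.111 in MEP and 2.71% ± 0.179 in CMP cells (SD, n = 8 plates each). In the remaining quadrant, CD34-low FcgR-high (183 cells), they made up 2.47% ± 0.201. Every MEP plate had a higher share than every GMP plate. The erythroid markers summed to 859 to 1416 CPM in GMP, 14798 to 17819 CPM in MEP and 1292 to 11067 CPM in CMP plates, and the neutrophil markers to 36121 to 49809 CPM, 1417 to 2758 CPM and 2355 to 13627 CPM in the same order.

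In MEP against CMP cells, with plate as a block, 19 of 56 members rose and 1 fell (11.5% and 11.8% of the 6611 genes tested, 23.2% in either direction), and the median log2 fold change was 0.26 over members and 0.095 over all genes. The risers were 7 of 12 eIF3 subunits, 4 of 7 elongation factors, 3 of 5 eIF2B subunits, 2 of 4 eIF4E-binding proteins, 2 of 9 eIF4 factors and Eif5b. Eef1e1 had 207 to 273 CPM (median 236) on MEP plates, against 63.6 to 167 CPM (median 128) on CMP plates (log2 fold change 0.89, SE 0.20, adjusted p = 0.000337). Eif4ebp1 had 510.1 to 681 CPM (median 568) on MEP plates, against 222 to 479 CPM (median 321) on CMP plates (log2 fold change 0.80, SE 0.13, adjusted p = 7.52e-07). For these 2 genes no MEP plate overlapped a CMP plate. Eif4g1 had 438 to 889 CPM (median 723) on MEP plates, against 278 to 545 CPM (median 445) on CMP plates (log2 fold change 0.75, SE 0.11, adjusted p = 2.33e-07). Eif2b4 rose (log2 fold change 0.75, adjusted p = 0.0124), and Eif2b3 rose as well (log2 fold change 1.22, adjusted p = 0.0256), but not without plate 3, plate 5 or plates 3 and 9 (adjusted p up to 0.0878). The abundant Eef2 rose by little, with 3962 ± 399 CPM on MEP and 3500.2 ± 600.4 CPM on CMP plates (SD, n = 8; log2 fold change 0.28, SE 0.064, adjusted p = 0.000454). Eif3c, Eif4enif1 and Eif3f were lost without plate 9 (adjusted p = 0.0883, 0.0995 and 0.0554). DESeq2 called 13 members (17.9% of all genes), without Eef1d, Eef1g, Eif2b3, Eif3c, Eif3f, Eif4enif1 and Eif5b, and gates at fixed intensities gave 31 (41.9%).

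Eif4e3 was the only member that fell in MEP. It had 2.74 to 11.9 CPM (median 6.93) on MEP plates, 62.3 to 112 CPM (median 89.7) on GMP plates and 0 to 165 CPM (median 83.1) on CMP plates (log2 fold change -3.34, SE 0.41, adjusted p = 1.26e-09 for MEP against CMP). Every MEP plate was below every GMP plate, and below every CMP plate but plate 2, whose 12 CMP cells held 0 UMIs of it. In GMP against CMP cells, 3 of 56 members rose and 1 fell (7.96% and 3.01% of 6611 genes, 11.0% in either direction). Eif4g1 rose (583 ± 116 CPM against 439.5 ± 95.9 CPM, log2 fold change 0.57, adjusted p = 0.00019), as did Eif3l (0.49, adjusted p = 0.00531) and Eif5a (0.27, adjusted p = 0.00449, lost without plate 6 (adjusted p = 0.145)). Eef1a1 fell (log2 fold change -0.22, adjusted p = 0.0471), a call lost without plate 2, 3, 5, 7 or 9 (adjusted p up to 0.239). DESeq2 called 4 members (6.89% of all genes) but not Eif3l or Eif5a, and gates at fixed intensities gave 8 (19.7%). The split hung on the scaling: 2 rose and 2 fell with DESeq2 size factors (5.46% and 4.24% of all genes) and 1 rose and 7 fell with library size alone (4.16% and 5.52%), which moved the median of all genes by -0.12 and -0.21. Eef1a1 kept its plate order in each gate, with 405 to 2824 CPM (median 1549) in GMP, 438 to 3727 CPM (median 2122) in MEP and 543 to 3579 CPM (median 2299) in CMP, plates 3, 5, 7 and 9 highest in all 3.

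**Figure D5:**
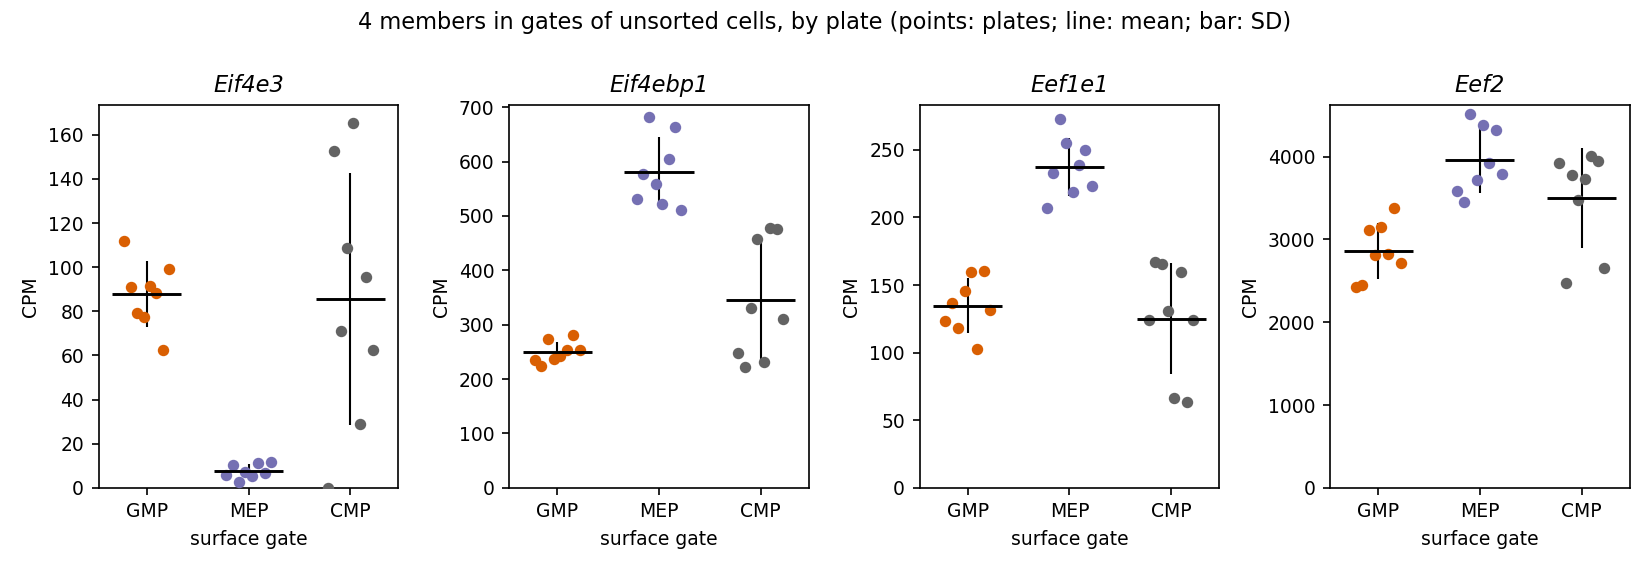
Level of Eif4e3, Eif4ebp1, Eef1e1 and Eef2 (CPM) in the surface GMP, MEP and CMP gates of unsorted cells; points are 8 plates, lines the mean and bars the SD. Eif4e3 is near the floor of the axis in MEP (7.68 ± 3.24 CPM) and Eif4ebp1 and Eef1e1 are highest there.

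Other translation genes were listed by role, and their counts are read against the same backgrounds as the members. Over all genes tested, 28.3% rose and 27.8% fell in the Irf8-GFP+ gate, and 25.8% and 27.5% in the Flt3+ Csf1r+ gate. These shares were 18% and 22.5% in the CD41+ gate and 11.5% and 11.8% in MEP. They were 13.5% and 9.85% in Cebpe KO and 9.67% and 8.95% in Cebpa KO. Of the aminoacyl-tRNA synthetases and their partners, which charge tRNAs for elongation, 0 rose and 15 fell of 21 tested in the Irf8-GFP+ gate, 0 rose and 13 fell of 21 in the Flt3+ Csf1r+ gate and 2 rose and 5 fell of 21 in the CD41+ gate. In MEP against CMP cells 7 rose and 0 fell of 21. Hars was among both sets, with log2 fold change -1.24, adjusted p = 2.32e-11 in the Irf8-GFP+ gate and log2 fold change 1.11, adjusted p = 1.66e-07 in MEP. Of the ribosome biogenesis factors, 1 rose and 15 fell of 19 in the Irf8-GFP+ gate, 2 rose and 13 fell of 19 in the Flt3+ Csf1r+ gate, 1 rose and 11 fell of 19 in the CD41+ gate, 7 rose and 0 fell of 18 in MEP and 0 rose and 9 fell of 18 in Cebpe KO. The nucleolar Nop56 fell most in the CD41+ gate (log2 fold change -3.03, adjusted p = 2.20e-05) and Dkc1, a pseudouridine synthase subunit, most in Cebpe KO (log2 fold change -2.72, adjusted p = 1.77e-07). Of termination and recycling factors, 1 rose and 6 fell of 8 in the Irf8-GFP+ gate and 4 rose and 0 fell of 7 in MEP. In Cebpa KO, 3 rose and 2 fell of 21 synthetase genes and 2 rose and 0 fell of 17 biogenesis factors, led by Wdr12 (log2 fold change 2.34, adjusted p = 5.75e-05). Both counts lay near the 18.6% of all genes called in either direction.

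The hypusine pathway makes the residue that Eif5a carries, from the polyamine spermidine. In the Irf8-GFP+ gate 0 rose and 4 fell of 5: Odc1, which starts polyamine synthesis (log2 fold change -1.25, adjusted p = 1.06e-09), the spermidine synthase Srm (log2 fold change -1.30, adjusted p = 1.29e-14), and Dhps and Dohh, the enzymes that modify Eif5a (log2 fold change -0.54, adjusted p = 0.0283; log2 fold change -0.73, adjusted p = 2.90e-05). In MEP, Odc1 rose (log2 fold change 1.12, adjusted p = 4.25e-06). Of the integrated stress response genes, which are read downstream of the eIF2 alpha kinases, 2 rose and 4 fell of 9 in the Irf8-GFP+ gate and 2 rose and 4 fell of 9 in the Flt3+ Csf1r+ gate. Of all genes, 56.1% and 53.3% were called in either direction in these gates. Asns, the asparagine synthetase induced by Atf4, had log2 fold changes of -5.22 in the Flt3+ Csf1r+ gate, -3.27 in the Irf8-GFP+ gate and -2.12 in the CD41+ gate, and 1.47 in MEP and -1.87 in GMP against CMP (adjusted p from 2.04e-15 to 0.000302). Atf4 itself fell in the Flt3+ Csf1r+ and Irf8-GFP+ gates (log2 fold change -0.58, adjusted p = 2.86e-07; log2 fold change -0.67, adjusted p = 8.44e-09) and rose in GMP (log2 fold change 0.57, adjusted p = 0.000231). The risers of this list in those 2 gates were enzymes of serine and glycine metabolism: Phgdh (log2 fold change 1.48, adjusted p = 1.38e-11) and Shmt2 (log2 fold change 0.93, adjusted p = 0.00255) rose in the Flt3+ Csf1r+ gate, and Psat1 (log2 fold change 0.82, adjusted p = 0.000144) and, by a smaller amount, Phgdh in the Irf8-GFP+ gate. In MEP, where Asns rose, Phgdh fell (log2 fold change -1.03, adjusted p = 2.80e-05). Of the mTORC1 and 4E signalling genes, 3 rose and 1 fell of 12 in the CD41+ gate, 2 rose and 4 fell of 12 in the Flt3+ Csf1r+ gate, 1 rose and 6 fell of 12 in the Irf8-GFP+ gate and none of 11 passed in either knockout. Of the poly(A)-binding proteins and partners, 0 rose and 2 fell of 5 in the CD41+ gate and 1 rose and 2 fell of 5 in the Irf8-GFP+ gate. Of all genes, 40.5%, 53.3% and 56.1% were called in the CD41+, Flt3+ Csf1r+ and Irf8-GFP+ gates. The signalling and poly(A) counts in the gates lay near these shares, so they are not read as results about those genes. The knockouts had 18.6% (Cebpa) and 23.4% (Cebpe) of all genes called.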

How the data were processed

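MARS-seq UMI counts of single bone marrow progenitor cells were deposited by the authors as 1 table of raw, whole-number counts per gene and well for each of 54 amplification pools. Demultiplexing used bcl2fastq 2.15.0.4 and the genome build was mm9, per the submitters' processing notes; no source used here names the aligner. The authors' deposited well table gives each well's pool, plate, sequencing batch, mouse identifier, group, number of sorted cells and CD34 and FcgR intensity, a fluorescence value used only to place unsorted cells in surface gates at the medians of their plate.

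Wells sorted with 1 cell and holding at least 500 UMIs were summed per pool, or per plate and gate. Groups follow the well table, since it is what the rule for the members names, and GEO labels were an alternative. The test was edgeR 4.0.16 (R 4.3.3) with TMM, filterByExpr, quasi-likelihood F-tests and Benjamini-Hochberg adjustment over all genes tested, with a threshold of 0.05. The Cebpa fit had sequencing batch as a covariate, the 3 sorted gates and unsorted pools were fitted together, and surface gates had plate as a block. An SE is the log2 fold change divided by the square root of F. DESeq2 1.42.0 was an alternative, with size factors, library size, filters, cell minimum (1000 UMIs, or none), joined rows left out, single batches, sums per plate and each pool left out. Tables and figures used Python 3.11.15, numpy 2.4.6, pandas 2.3.3 and matplotlib 3.10.9.

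The members and the lists of other translation genes (poly(A)-binding proteins, termination factors, tRNA synthetases, stress response, mTORC1 signalling, ribosome biogenesis, hypusine pathway) were chosen with earlier results of these data known. Named genes are called members (at most 20 values per comparison, by size), the 10 members with most UMIs, regulators and at most 5 genes per list, while further members are named where a count of 5 or fewer or an alternative turns on them. The 30-base promoter windows come from RefSeq, where 44 members matched and 16 did not. On simulated counts with genes changed by known amounts, the test recovered 96.2% of genes changed 2-fold in the Cebpa comparison, 64.8% in Cebpe, 52% in CD41+, 90% in Flt3+ Csf1r+, 92.9% in Irf8-GFP+, 44% in GMP and 54.5% in MEP, with 2.72% to 4.27% of calls false. Those simulated counts had the same spread for every gene and no plate, batch or mouse effect. The real plates of a group differed, so these rates do not give the error of the tests on the real pools. No other per-sample column was used. The mean of the wells without a cell lay between 12.5 and 212 UMIs in a pool. Of the single-cell wells, 19.5% to 100% per pool were kept. Doublets were not called, as 1 cell was sorted to a well.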

Additional observations from a re-analysis of the deposited data

Results flagged for a closer look

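Of 72 sets of pools examined (1 gene in 1 group of 4 or 6 pools), 5 had a pool that stood far from the others. The groups were Cebpa control, Cebpe KO, Flt3+ Csf1r+ and Irf8-GFP+ MHCII+, and the other groups were not examined. Chance flags about 1 in 20 sets if pools are independent, which the 2 pools of a plate may not be. The kinase Eif2ak3 was at 36.6 CPM in Cebpe KO replicate 4, against 18.2 to 20.8 CPM in the other KO pools, and at 27.6 CPM in Irf8-GFP+ MHCII+ replicate 6, against 16.7 to 20.7 CPM in the other pools of that gate. The eIF3 subunit Eif3b was at 448 CPM in Irf8-GFP+ MHCII+ replicate 4, against 508 to 544 CPM. The eIF4E-binding protein Eif4ebp2 was at 164 CPM in Flt3+ Csf1r+ replicate 3, against 49.7 to 87.4 CPM, and at 111 CPM in Irf8-GFP+ MHCII+ replicate 1, against 58.9 to 74.9 CPM. Flt3+ Csf1r+ replicate 3 lies on plate 11, which also stood apart in Eif3e and carries a GEO label of another group.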

How the results depend on the processing

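Members called in Cebpa KO against control (10) numbered 2 in the pools whose label and table entry agree, 4 by GEO label, 2 in sequencing batch SB29 alone, 2 as sums per plate, 28 without control plate 26, 5 without control plate 27, and 7 to 16 with each pool left out in turn. In Cebpe KO (16) they numbered 9 with DESeq2, 10 by GEO label, 5 as sums per plate, 13 without the neutrophil marker rows, and 3 to 14 with each pool left out. In the CD41+ gate (28) they numbered 14 to 29 with each pool left out, in the Flt3+ Csf1r+ gate (36) 22 by GEO label and 32 to 36, and in the Irf8-GFP+ gate (41) 37 to 42. GMP (4) gave 8 with library size only, 7 with no filter, 8 with gates at fixed intensities, 8 as sums per pool with pool as the block, 2 with no replicate block, and 3 to 5 with each plate left out. MEP (20) gave 13 with DESeq2, 31 at fixed intensities, 16 with no replicate block, and 17 to 23 with each plate left out; without a filter the median of all genes moved by 0.13 in GMP and 0.16 in MEP, with 7 higher and 0 lower, and 29 higher and 1 lower members. Library size alone moved it by -0.12 in Cebpe. By GEO label the sign turned for Eif4a1 (-0.014) in Cebpa KO; for Eef1b2 (0.54), Eef1d (0.46), Eef1e1 (1.20), Eif3d (0.93), Eif3f (0.40), Eif3g (0.79), Eif3i (0.43), Eif4e (0.48), Eif4ebp1 (1.23), Eif4enif1 (0.73), Eif4g3 (-0.50) and Eif5 (0.084) in Cebpe KO; for Eef2 (-0.0795) and Eif3e (-0.52) in the Flt3+ Csf1r+ gate and for Eif5a (0.038) in the Irf8-GFP+ gate. Eif3e also turned with agreeing pools only (-0.092). These causes were not tested. Of 3508 values of named members under alternatives, 3241 kept sign and side of the threshold, 250 were no longer called and 17 turned. No paired analysis was possible because pools of different groups share no plate, for all but the surface gates. Agreeing pools for Cebpe and single batches for Cebpe, Flt3+ Csf1r+ and Irf8-GFP+ were not run, since they leave no pools of both groups or are the whole comparison. Sums per plate, the plates left out and the neutrophil rows were chosen after seeing the data. The eIF2 alpha kinases rest on few UMIs, so smaller differences among them were not detectable at this depth.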
